A study of Mus musculus with 6 samples.

Results

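The connecting cilium, BBSome and intraflagellar transport (IFT) genes are a set of 43 mouse genes, chosen by name from 52636 genes in the count table. The set holds 7 BBSome subunits, 4 factors that assemble or recruit the BBSome, 11 IFT-B genes, 3 IFT-A genes, 12 genes of the connecting cilium, transition zone or basal body, 4 genes of lipidated cargo transport and 2 kinesin motors. Each was followed across 5 cell types and both genotypes of a single-cell RNA-seq experiment on 6 retinas. The retinas were from male C57BL/6J mice aged 12 months, 3 Dram2 wt/wt and 3 Dram2 ko/ko. The ko/ko mice carried a constitutive CRISPR/Cas9 deletion of an internal exon of Dram2, so no cell type was targeted apart from the others. Replicate 3 of each genotype was batch 1 by the labels and replicates 1 and 2 were batch 2. Nothing in the labels ties the retinas to separate mice, so p-values here measure the spread between these samples, which may be technical. The kit reads the 3′ end of a transcript, and the deleted exon is internal, so Dram2 counts could not check the genotype labels.

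A photoreceptor keeps its light-detecting membranes in an outer segment, which is a modified primary cilium. Everything made in the cell body reaches it through the connecting cilium, a narrow bridge that matches the transition zone of other cilia. IFT-B and kinesin-2 carry cargo toward the ciliary tip, IFT-A and dynein-2 bring it back, and the BBSome, a coat-like complex recruited by the GTPase Arl6, takes membrane proteins out of the cilium. Mutations in many of these genes cause retinal degeneration, alone or with kidney, brain or limb defects (Bardet-Biedl, Joubert, Senior-Løken and Leber congenital forms).

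A sequence motif used by many ciliary genes is the X-box, bound by RFX factors. Windows of 300 bases around the RefSeq start (250 before and 50 after, build GRCm38.p6) were matched for 38 of the 43 members, and Ift80, Ift81, Ift122, Sdccag8 and Tmem67 had no entry. The X-box was searched on both strands as GTTNCC, a gap of 0 to 3 letters, and GGNAAC. It was found in 3 of 38 members (7.89%) and in 0.936% of 27025 genes with a window. The 3 matches are shown because they show the same element in a BBSome subunit, an IFT-B subunit and a basal body gene. Capitals mark the motif and lower case up to 8 bases on each side. Distances are from the RefSeq start, which can differ from the start in the GENCODE gene coordinates given later.
Bbs7 (chr3:36613489-36613518, minus strand, starting 121 bases before the start): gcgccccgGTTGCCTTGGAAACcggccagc
Ift57 (chr16:49699226-49699254, plus strand, starting 60 bases before the start): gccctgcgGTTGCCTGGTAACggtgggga
Ahi1 (chr10:20952560-20952589, plus strand, 22 bases after the start): tagtctgaGTTACCTAGGCAACagcggcag
The photoreceptor factors CRX and OTX2 bind TAATCC, which was found in Bbs1 and Rpgrip1 (5.26% of 38 members, 8.14% of all genes). The match nearest to its start was that of Rpgrip1, shown because Rpgrip1 had the most UMIs of the set. It reads on the opposite strand and starts 28 bases before the start.
Rpgrip1 (chr14:52110867-52110888, plus strand): aaaggcctGGATTAgtgtctcc
Shorter letter strings were searched as well. GTTGCCA, 1 arm of an X-box, was in 4 members (10.5%, against 5.02% of all genes) and TGCTGAC, part of the site of the rod factor NRL, in 2 members (5.26%, against 5.28%). A match is a run of letters, and binding was not measured.

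Cells were typed by the authors as photoreceptors (42359 cells), interneurons (2083), glia (942), mesenchymal cells (246) and retinal pigment epithelium, RPE (116). The unit is the UMI, a tag that counts each captured RNA molecule once, and levels are CPM, UMIs per 1000000 of the UMIs summed over a retina's cells of a type. Depth per retina was 2892834 to 4675272 UMIs for photoreceptors, 245755 to 1406842 for interneurons and 145343 to 453224 for glia. Sums were shallower for mesenchymal cells (77876 to 114066) and RPE cells (17073 to 35968). The 9 rod markers summed to 59168 to 91573 CPM in photoreceptors and to 5591 to 13155 in glia. In interneurons, bipolar markers summed to 3986 to 7978, rod markers to 8330 to 12305 and cone markers to 1566 to 3068. The cells labelled mesenchymal carried microglial (12070.5), endothelial (6740) and pericyte (2327) markers, while the 4 fibroblast markers summed to 7.46. RPE cells had 6 of 7 RPE markers, and Best1 was at 0.

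The set as a whole was highest in photoreceptors. Summed over the 43 members, photoreceptors of wt/wt replicates 1 to 3 had 5465, 5569 and 4932 CPM, and those of ko/ko replicates 1 to 3 had 4276, 5351 and 5309. Other types ranged lower, with 2367 to 2746 for interneurons, 703 to 1796 for RPE cells, 1763 to 2175 for glia and 1055 to 1601 for mesenchymal cells. The 6 photoreceptor values did not overlap with those of any other type. The share of all genes without overlap between types was not counted, here or for single members below. Of 42 members with at least 100 UMIs in all, 33 were higher in photoreceptors than in interneurons and 2 lower (edgeR quasi-likelihood test with the retina as a block, adjusted p under 0.05), against 31.2% of 13760 genes tested that were higher and 28% that were lower. The median log2 difference was 1.27 for the members and 0.07 for all genes. Against glia, 28 members were higher and 1 lower, where 33.7% of all genes were higher and 22.8% lower, with medians of 1.07 and 0.28. Kif17 had 16 UMIs in all cells and was not tested.

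Both counts depend on how the libraries are scaled and on which genes are let in. With UMI totals in place of TMM factors, the split of all genes against interneurons went from 4290 higher and 3854 lower to 2884 and 5294, the median of all genes fell to -0.21, and 28 members were higher and 3 lower. Against glia the split of all genes went from 4638 and 3132 to 3407 and 3792, with 26 members higher and 3 lower. Most UMIs were in photoreceptors, so a member could pass the filter through that type alone. Among genes with at least 50 UMIs in interneurons, a choice made after seeing the data, 27 of 36 members were higher and 2 lower, against 31.7% of 10167 genes higher and 34.2% lower in that fit. With at least 50 UMIs in glia, 12 of 17 members were higher and 0 lower, against 39% and 36% of 5788 genes.

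**Figure D1:**
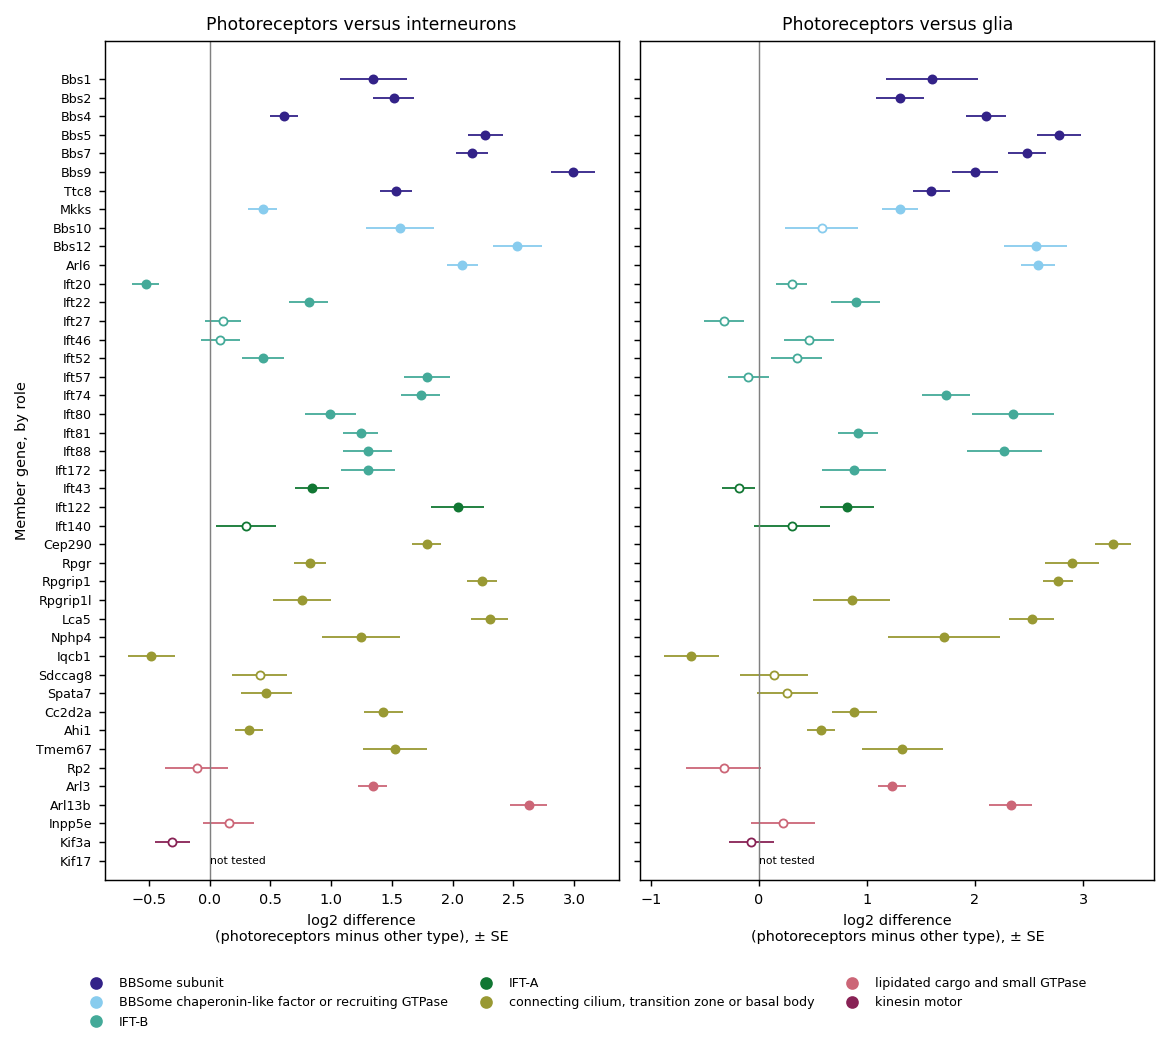
Log2 difference of photoreceptors over interneurons (left) and over glia (right) for each member, with its standard error, coloured by role. Filled points passed an adjusted p under 0.05: 33 higher and 2 lower on the left, 28 higher and 1 lower on the right.

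The 7 BBSome subunits (Bbs1, Bbs2, Bbs4, Bbs5, Bbs7, Bbs9 and Ttc8) were all higher in photoreceptors than in interneurons and in glia. Their log2 differences ran from 0.61 (Bbs4) to 2.99 (Bbs9) over interneurons and from 1.30 (Bbs2) to 2.77 (Bbs5) over glia. Only Bbs4 (61), Bbs7 (69) and Ttc8 (87) had at least 50 UMIs in glia. Bbs1 had 10 there, was higher in photoreceptors in 5 of 6 retinas, and lost its call over glia in at least 1 alternative. Bbs7, the subunit with the most UMIs, lies at chromosome 3, 36573142 to 36613477 (GRCm38, minus strand). In photoreceptors its level was 264, 274 and 175 CPM in wt/wt and 188, 246 and 229 in ko/ko. In interneurons it was 59.3, 98.6 and 40.5 in wt/wt and 48.8, 88.5 and 51.8 in ko/ko. The lowest photoreceptor value was above the highest of interneurons, a log2 difference of 2.16 (SE 0.13, edgeR adjusted p = 4.09e-42). In glia the values were 38.2, 66.9 and 30.9 in wt/wt and 26.8, 103 and 40.6 in ko/ko, again below every photoreceptor value (2.48, SE 0.17, edgeR adjusted p = 6.29e-34).

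Bbs9, a BBSome subunit encoded on chromosome 9 (22475715 to 22888280), had the largest difference from interneurons in the set. Its photoreceptor level was 111, 111 and 71.8 CPM in wt/wt and 82.3, 107 and 98.0 in ko/ko, and in interneurons it was 21.3, 19.2 and 18.5 in wt/wt and 16.3, 6.47 and 6.86 in ko/ko. The difference was 2.99 (SE 0.18, edgeR adjusted p = 2.05e-42), on 59 UMIs in all interneurons. Glia had 19.1, 13.4 and 28.7 in wt/wt and 33.5, 34.4 and 30.4 in ko/ko (2.00, SE 0.21, edgeR adjusted p = 1.62e-17).

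The 4 genes that build or recruit the BBSome are Mkks, Bbs10 and Bbs12, which resemble chaperonins, and the GTPase Arl6. All 4 were higher in photoreceptors than in interneurons and 3 of 4 were higher than in glia, with Bbs10 at a log2 difference of 0.58 over glia (edgeR adjusted p = 0.135). Arl6 (chromosome 16, 59612949 to 59639391) had 269.8, 257 and 555 CPM in wt/wt photoreceptors and 334, 284 and 586 in ko/ko. Replicate 3 of both genotypes, the batch 1 retinas, was the highest. Interneurons had 99.6, 69.7 and 151 in wt/wt and 114, 77.7 and 142 in ko/ko (2.08, SE 0.13, edgeR adjusted p = 2.05e-42), and glia had 49.6, 46.9 and 77.2 in wt/wt and 87.1, 61.9 and 134 in ko/ko (2.59, SE 0.16, edgeR adjusted p = 1.26e-41). Neither overlapped with photoreceptors.

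Bbs12 (chromosome 3, 37312554 to 37321453) had the third largest difference from interneurons. Photoreceptors had 60.9, 65.3 and 44.1 CPM in wt/wt and 61.2, 54.3 and 46.8 in ko/ko, whereas interneurons had 14.2, 12.0 and 12.8 in wt/wt and 12.2, 12.9 and 5.33 in ko/ko (2.53, SE 0.20, edgeR adjusted p = 8.17e-28). In glia, where 16 UMIs were counted, it had 15.3, 0 and 13.2 in wt/wt and 0, 6.88 and 12.7 in ko/ko (2.56, SE 0.29, edgeR adjusted p = 1.58e-15). A count of 0 allows up to 20.1 CPM in each of those 2 retinas, so the level there was not detectable at this depth. Exons of Bbs12 and Mkks overlap those of unnamed gene models on the same strand, and reads there cannot be told apart.

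**Figure D2:**
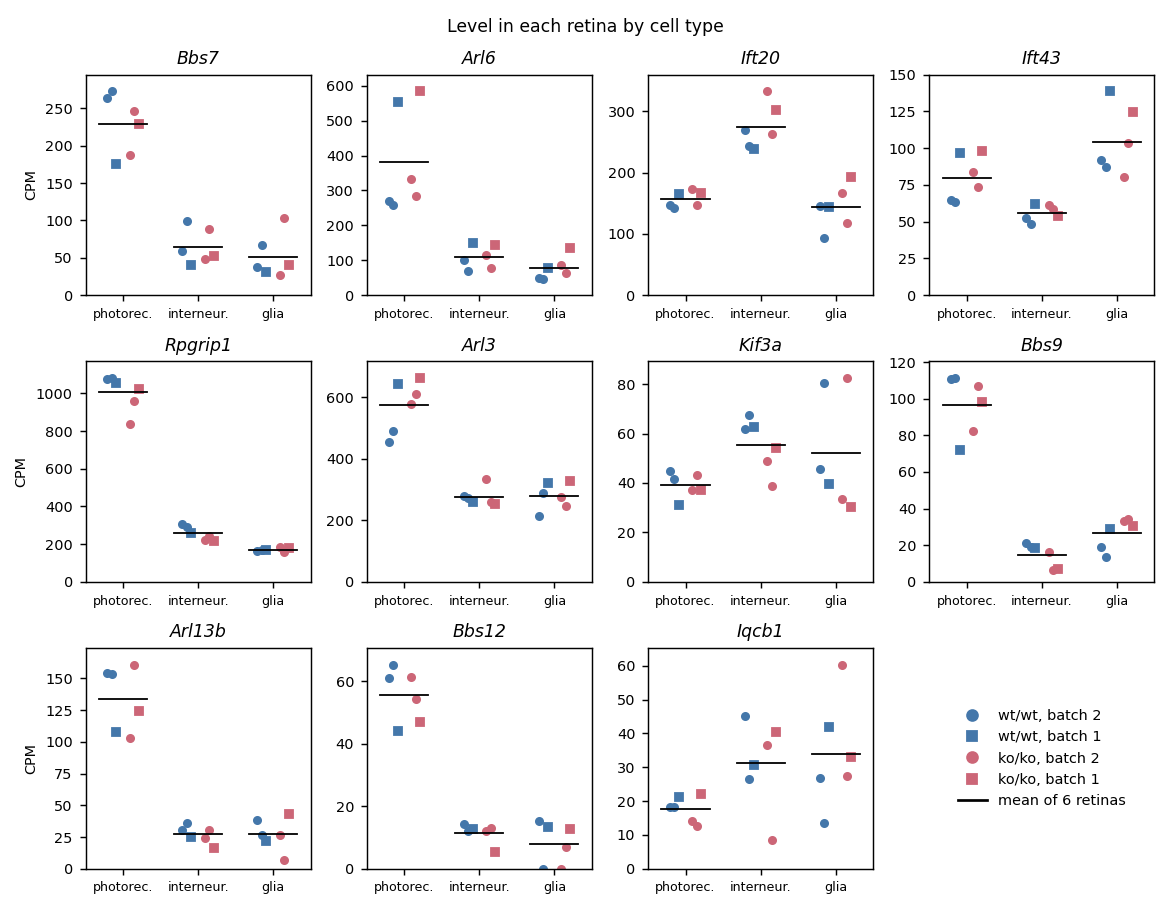
Level (CPM) in each retina for the 11 members given in full, in photoreceptors, interneurons and glia. Blue points are wt/wt and red points ko/ko retinas, squares are batch 1, circles batch 2, and lines the mean of 6 retinas. Photoreceptor points lie clear of both other types for Bbs7, Rpgrip1, Arl6, Arl3, Bbs9, Arl13b and Bbs12, and below all interneuron points for Ift20. Bbs9, Arl13b and Bbs12 were picked for their large difference from interneurons. The share of all genes without overlap was not counted.

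The 11 IFT-B genes were split. Ift22, Ift52, Ift57, Ift74, Ift80, Ift81, Ift88 and Ift172 were higher in photoreceptors than in interneurons, by 0.44 (Ift52) to 1.79 (Ift57) on the log2 scale. Ift20 was lower, and Ift27 (0.11) and Ift46 (0.09) did not pass the test. The calls of Ift52 and Ift80 were lost in some alternatives. As CPM without TMM, Ift52 was higher in photoreceptors than in interneurons in only 4 retinas. Ift20 (chromosome 11, 78536361 to 78541737), which also sits at the Golgi and sorts proteins bound for the cilium, had 147, 142 and 166 CPM in wt/wt photoreceptors and 174, 147 and 166 in ko/ko. Interneurons had 270.4, 243 and 238 in wt/wt and 334, 263 and 303 in ko/ko. Every interneuron value was above every photoreceptor value (-0.53, SE 0.11, edgeR adjusted p = 1.07e-05), the only member with no overlap in that direction. The share of all genes without overlap in that direction was not counted. Glia, at 145, 93.7 and 143 in wt/wt and 168, 117 and 193 in ko/ko, overlapped with photoreceptors (0.30, SE 0.14, edgeR adjusted p = 0.0586), though the difference passed with no filter (0.50, edgeR adjusted p = 0.00229) and with at least 50 UMIs in glia (0.48, edgeR adjusted p = 0.000786).

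Against glia, 6 of the 11 IFT-B genes were higher in photoreceptors (Ift22, Ift74, Ift80, Ift81, Ift88 and Ift172). The log2 differences of the other 5 were -0.32 for Ift27, -0.10 for Ift57, 0.30 for Ift20, 0.35 for Ift52 and 0.46 for Ift46. Ift57 was thus called against interneurons and not against glia, where its pooled level was 125% of that in photoreceptors, and Ift80 and Ift88 had 23.9% and 22.2% of it. Those levels of Ift80 and Ift88 rested on 10 and 12 UMIs in glia. Of the 6 genes called over glia, only Ift81 (77) had at least 50 UMIs there. The calls of Ift22, Ift81 and Ift172 over glia were lost in at least 1 alternative.

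Of the 3 IFT-A genes, Ift43 (0.84) and Ift122 (2.04) were higher in photoreceptors than in interneurons, and Ift140, a core subunit, had a log2 difference of 0.30 (edgeR adjusted p = 0.293). Against glia only Ift122 passed (0.81), on 38 UMIs in glia, and that call was lost in at least 1 alternative. Ift43, which had the most UMIs of the 3, is on chromosome 12 (86082541 to 86162459). Photoreceptors had 64.4, 63.5 and 96.7 CPM in wt/wt and 84.0, 73.3 and 97.7 in ko/ko, and interneurons had 52.2, 48.1 and 61.8 in wt/wt and 61.0, 58.3 and 54.1 in ko/ko (SE 0.14, edgeR adjusted p = 8.82e-09). All 6 photoreceptor values were above the highest interneuron value. In glia, Ift43 ran at 91.7, 87.0 and 139 in wt/wt and 80.4, 103 and 124 in ko/ko, which overlapped with photoreceptors (-0.19, SE 0.15, edgeR adjusted p = 0.281). It was called lower in photoreceptors than in glia with UMI totals (-0.44, edgeR adjusted p = 0.00894) and in wt/wt retinas alone (-0.54, edgeR adjusted p = 0.0324).

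Of the 12 genes of the connecting cilium, transition zone or basal body, 10 were higher in photoreceptors than in interneurons, Iqcb1 was lower, and Sdccag8 (0.41, edgeR adjusted p = 0.113) did not pass. The largest differences were those of Lca5 (2.30), which encodes lebercilin, Rpgrip1 (2.24) and Cep290 (1.79). They were followed by Tmem67 (1.52), Cc2d2a (1.43), Nphp4 (1.24), Rpgr (0.82), Rpgrip1l (0.76), Spata7 (0.47) and Ahi1 (0.32). The calls of Nphp4, Rpgrip1l, Spata7 and Ahi1 over interneurons were lost in some alternatives. As CPM without TMM, Ahi1 was higher in photoreceptors than in interneurons in only 3 retinas and Spata7 in only 4. Over glia, Cep290 (3.28) and Rpgr (2.90) had the largest differences of the whole set, 9 of 12 were higher, and Sdccag8 (0.14) and Spata7 (0.26) did not pass. The calls of Ahi1, Cc2d2a, Nphp4, Rpgrip1l and Tmem67 over glia were lost in at least 1 alternative. In glia Nphp4 had 6 UMIs, Tmem67 14, Rpgrip1l 17 and Rpgr 22. Exons of Rpgr overlap those of Srpx on the same strand, and reads there cannot be told apart.

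Rpgrip1, which anchors the GTPase regulator Rpgr in the connecting cilium, is on chromosome 14 (52110704 to 52163546) and had more UMIs than any other member, 23034 in all cells. Photoreceptors had 1074, 1083 and 1053 CPM in wt/wt and 837, 957 and 1025 in ko/ko. Interneurons had 308, 293 and 259 in wt/wt and 224, 244 and 216 in ko/ko (2.24, SE 0.12, edgeR adjusted p = 4.11e-48). Glia had 164, 167 and 168 in wt/wt and 188, 158 and 178 in ko/ko (2.77, SE 0.14, edgeR adjusted p = 1.99e-52), and neither type overlapped with photoreceptors.

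Iqcb1, which encodes nephrocystin-5, is on chromosome 16 (36828385 to 36872721). It had 18.1, 18.2 and 21.2 CPM in wt/wt photoreceptors and 14.2, 12.5 and 22.0 in ko/ko. Interneurons had 45.1, 26.4 and 30.6 in wt/wt and 36.6, 8.63 and 40.4 in ko/ko, higher in 5 of 6 retinas with ko/ko replicate 2 the exception (-0.48, SE 0.19, edgeR adjusted p = 0.0233). In glia the values were 26.7, 13.4 and 41.9 in wt/wt and 60.3, 27.5 and 33.0 in ko/ko (-0.63, SE 0.25, edgeR adjusted p = 0.0277). Both calls are fragile: Iqcb1 passed in 6 of 18 alternative fits against interneurons and in 11 of 18 against glia. It was lost against interneurons without wt/wt replicate 1 (-0.37, edgeR adjusted p = 0.124), ko/ko replicate 1 (-0.38, adjusted p = 0.0989) or ko/ko replicate 3 (-0.48, adjusted p = 0.0735). Against glia it was lost without wt/wt replicate 3 (-0.60, edgeR adjusted p = 0.0915) or ko/ko replicate 1 (-0.46, adjusted p = 0.149).

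Among the lipidated cargo genes, the GTPases Arl3 and Arl13b were higher in photoreceptors than in both other types. Arl3 releases lipidated cargo from its carriers, and Arl13b activates Arl3. Rp2, which switches Arl3 off, and Inpp5e, a phosphoinositide phosphatase of the cilium, did not pass, with log2 differences of -0.11 and 0.16 over interneurons and -0.33 and 0.22 over glia. Arl3 (chromosome 19, 46531096 to 46573198) had 455, 489 and 643 CPM in wt/wt photoreceptors and 577, 612 and 663 in ko/ko. Interneurons had 278, 272 and 259 in wt/wt and 334, 261 and 252 in ko/ko (1.34, SE 0.12, edgeR adjusted p = 5.13e-23), and glia had 214, 288 and 319.9 in wt/wt and 275, 248 and 327 in ko/ko (1.23, SE 0.13, edgeR adjusted p = 3.00e-17). All photoreceptor values were above both.

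Arl13b (chromosome 16, 62793685 to 62847040) differed from interneurons more than any member but Bbs9. Photoreceptors had 154, 153 and 107 in wt/wt and 103, 161 and 124 in ko/ko, and interneurons 30.8, 36.1 and 24.9 in wt/wt and 24.4, 30.2 and 16.0 in ko/ko (2.63, SE 0.15, edgeR adjusted p = 6.89e-44). Glia had 38.2, 26.8 and 22.1 in wt/wt and 26.8, 6.88 and 43.1 in ko/ko (2.33, SE 0.20, edgeR adjusted p = 4.26e-25).

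Kif3a, a motor subunit of kinesin-2 (chromosome 11, 53567379 to 53601967), was not called higher in photoreceptors than in interneurons or glia. It had 44.7, 41.6 and 31.0 CPM in wt/wt photoreceptors and 37.3, 43.2 and 37.2 in ko/ko. Interneurons had 61.7, 67.3 and 62.6 in wt/wt and 48.8, 38.8 and 54.1 in ko/ko (-0.31, SE 0.15, edgeR adjusted p = 0.0589). The value passed in 3 of 19 alternative fits, with UMI totals (-0.59, edgeR adjusted p = 0.000172), in wt/wt retinas alone (-0.60, edgeR adjusted p = 0.0114) and without ko/ko replicate 2 (-0.38, edgeR adjusted p = 0.0286). Without wt/wt replicate 3 it was -0.10 (edgeR adjusted p = 0.621). Glia ranged from 30.4 to 82.6 (45.8, 80.3 and 39.7 in wt/wt, 33.5, 82.6 and 30.4 in ko/ko), with a difference of -0.07 (SE 0.21, edgeR adjusted p = 0.794). Over mesenchymal cells, with 14 UMIs, Kif3a was called higher in photoreceptors (0.91, edgeR adjusted p = 0.0317), and the call was lost in at least 1 alternative. RPE cells had 1 UMI of Kif3a, too few for a comparison. Kif17, the other kinesin, had 10 UMIs in photoreceptors, 4 in interneurons and 2 in glia, and its exons overlap those of Sh2d5 on the same strand.

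Rod markers were also counted in the other types, which bears on how low levels there are read. The 9 rod markers were at 7.94% to 17.6% of their photoreceptor level in interneurons and at 9.42% to 18.9% in glia. Of 42 members with at least 10 UMIs in interneurons, only Bbs9 (14.3%) was within or under the range of the rod markers. The 7 cone markers were nearer to their photoreceptor level there. Singly they ran from 26.8% to 103%, a range that takes in more members than their sum does. The sum was 2434 CPM against 5767 (42.2%), and 17 of the 42 members were at or under that share. Among them were Lca5, Cep290, Rpgrip1 (24.8%), Bbs7 (25.0%) and Arl6 (31.5%), and what part cone RNA has in their interneuron levels was not tested. In glia the sum of the cone markers was at 9.61%, below every member with at least 10 UMIs, and single cone markers ran from 7.27% to 12.2%. At or under the highest rod marker in glia were 6 of 41 members: Cep290 (10.6%), Rpgr (15.8%), Rpgrip1 (16.9%), Lca5 (17.9%), Bbs5 (18.6%) and Bbs12 (18.9%). The levels of these 6 genes in glia cannot be told apart from carried-over rod RNA. At the other end, 9 members in interneurons and 9 in glia had a pooled level above that of photoreceptors. Ift27, Iqcb1, Rp2, Inpp5e, Kif3a and Kif17 were in both groups, Ift20, Ift46 and Ift140 only among those of interneurons, and Ift57, Ift43 and Sdccag8 only among those of glia. Kif17 rested on 4 and 2 UMIs. Of these 12 genes, the test called Ift20 lower in photoreceptors than in interneurons and Iqcb1 lower than in both types.

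**Figure D3:**
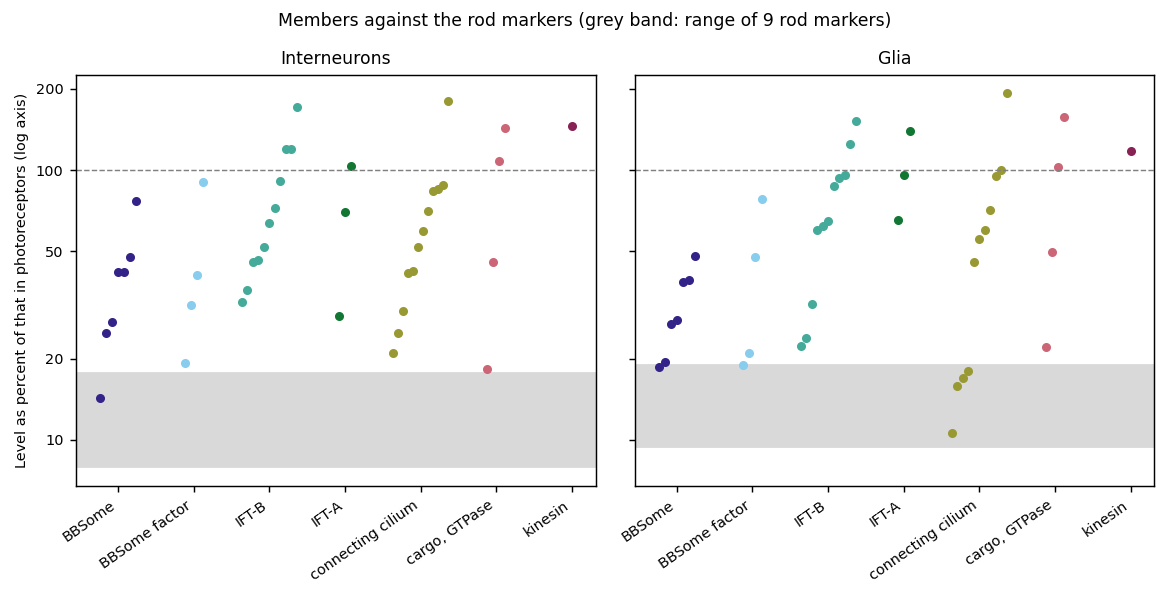
Pooled level of each member with at least 10 UMIs in interneurons (left) or glia (right) as percent of its level in photoreceptors, on a log axis, by role. The grey band is the range of 9 rod markers, and the dashed line marks 100%. Bbs9 lies in the band on the left, and 6 members lie in it on the right.

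In mesenchymal cells, 34 of 42 members were lower than in photoreceptors and Rp2 was higher in mesenchymal cells (a log2 difference of -1.20 for photoreceptors), where 31.2% of all genes were higher in photoreceptors and 19.2% lower. Members passed the filter through photoreceptors, and 26 of 43 had 10 or more UMIs in mesenchymal cells, 6 had 3 or fewer and 1 of these had 0, so the count supports nothing about single members. With UMI totals in place of TMM factors the split of all genes went from 4300 and 2636 to 2720 and 3345, and 22 members were higher in photoreceptors and 1 lower. The median log2 difference was 1.96 for the members and 0.45 for all genes. Rp2 rested on 16 UMIs in mesenchymal cells and was not called without wt/wt replicate 1, wt/wt replicate 2 or ko/ko replicate 2. Of the 26 members with at least 10 UMIs in mesenchymal cells, Cep290 (11.9%), Rpgrip1 (14.8%), Bbs5 (13.5%), Arl6 (15.5%) and Ahi1 (14.1%) were within the range of the rod markers there (6.70% to 15.5%). In RPE cells, 9 members had 0 UMIs (Bbs1, Bbs9, Ift140, Nphp4, Iqcb1, Tmem67, Arl13b, Inpp5e and Kif17), and only Mkks, Ift20, Rpgrip1, Ahi1 and Arl3 reached 10. A count of 0 in 151269 UMIs allows up to 19.8 CPM, so only Arl13b and Bbs9 were lower there than in photoreceptors beyond that limit, at least 6.73-fold and 4.88-fold. The fit called 34 members higher in photoreceptors than in RPE cells and 0 lower, against 33.9% and 6.06% of all genes. Members passed the filter through photoreceptors and 28 of 43 had 3 or fewer UMIs in RPE cells, so these calls support nothing about single members. The median of all genes in that fit was itself 1.77, with 2.86 for the members. With UMI totals 16 members were higher, the medians were 1.05 and 2.11, and the split of all genes went from 4661 higher and 834 lower to 1889 and 1135. With limma-voom the medians were -0.01 and 1.29. Log2 differences from RPE cells thus shift with the scaling and the tool. In sums simulated at this depth, the edgeR fit with TMM also shifted differences from RPE cells upward and called some unchanged genes.

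The members' sum in RPE cells did not overlap between genotypes. It was 1796, 1504 and 1529 CPM (48, 40 and 55 UMIs) in wt/wt, and 760, 1109 and 703 (17, 25 and 12 UMIs) in ko/ko. The rod markers there summed to 10850, 8458 and 11093 in wt/wt and to 9124, 5102 and 10484 in ko/ko, which overlapped. The RPE markers summed to 90283, 99395 and 86605 in wt/wt and to 104969, 116588 and 100041 in ko/ko, all 3 ko/ko values the higher ones; their part in the members' sum was not tested. These sums come from 10 to 25 cells a retina and no single member passed the filter for a test, so the sum is a description only. No permutation test on 3 against 3 retinas can go below 0.1, and the share of all genes without overlap in RPE cells was not counted.

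The other genes of the pathway, 62 in 6 lists, were counted in the same way. Of 55 tested, 44 were higher in photoreceptors than in interneurons and 5 lower, against 31.2% and 28% of all genes. Against glia 41 were higher and 4 lower, where 33.7% and 22.8% of all genes were. With UMI totals these counts were 38 and 7, and 35 and 6. With at least 50 UMIs in the other type, 33 of 43 were higher and 5 lower for interneurons, and 16 of 25 and 4 for glia. All 4 tested genes of the periciliary and Usher list were higher than in interneurons, with Pcdh15 (1.41) and Whrn (2.21) having the most UMIs, as were 5 of 6 of the axoneme list, with Rp1 (3.83) and Fam161a (2.54), and 16 of 17 of the transition zone and basal body list, with Cep164 (2.80) and Tmem237 (1.27). The other BBSome and IFT genes had 9 of 11 higher, with Bbip1 (0.51) and Cluap1 (0.82). Of the other ciliary motors, 6 of 9 were higher and 2 lower, with Dynll1 at 1.40 and Dynlrb1, a light chain of dynein, at -0.86. The list for lipidated cargo and rhodopsin transport had 4 of 8 higher, among them Unc119 (1.44) and Tulp1 (2.77), and 3 lower.

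No member was called between genotypes in any cell type. In photoreceptors 42 members were tested, and 0 were called (0% of 13053 genes tested). In interneurons 0 of 26 tested members were called (0% of 7698 genes), in glia 0 of 11 (0% of 4130), in mesenchymal cells 0 of 3 (0% of 1717) and with all cells summed 0 of 42 (0% of 15330). In RPE cells no member passed the filter, and 0% of 308 genes were called. The authors, with limma-voom on sums per type, did report genes that differ in interneurons, mesenchymal cells and RPE cells. No member is among those genes, while Unc119 of the wider pathway is, in mesenchymal cells. At an unadjusted p under 0.05 there was 1 member in photoreceptors, against 109 genes in all, and 0 in interneurons, glia and mesenchymal cells. DESeq2 and limma-voom also called 0 members in every type. The median log2 difference of the members in photoreceptors was -0.06, with 17 above and 25 below 0, and that of all genes was -0.01. Its sign is not stable. The median was 0.09 with 28 of 42 above 0 without ko/ko replicate 1, 0.02 with 22 above 0 without wt/wt replicate 2, and 0.0063 with 22 above 0 in the stricter set of cells. It was -0.12 without wt/wt replicate 3 and -0.16 in batch 2 alone.

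**Figure D4:**
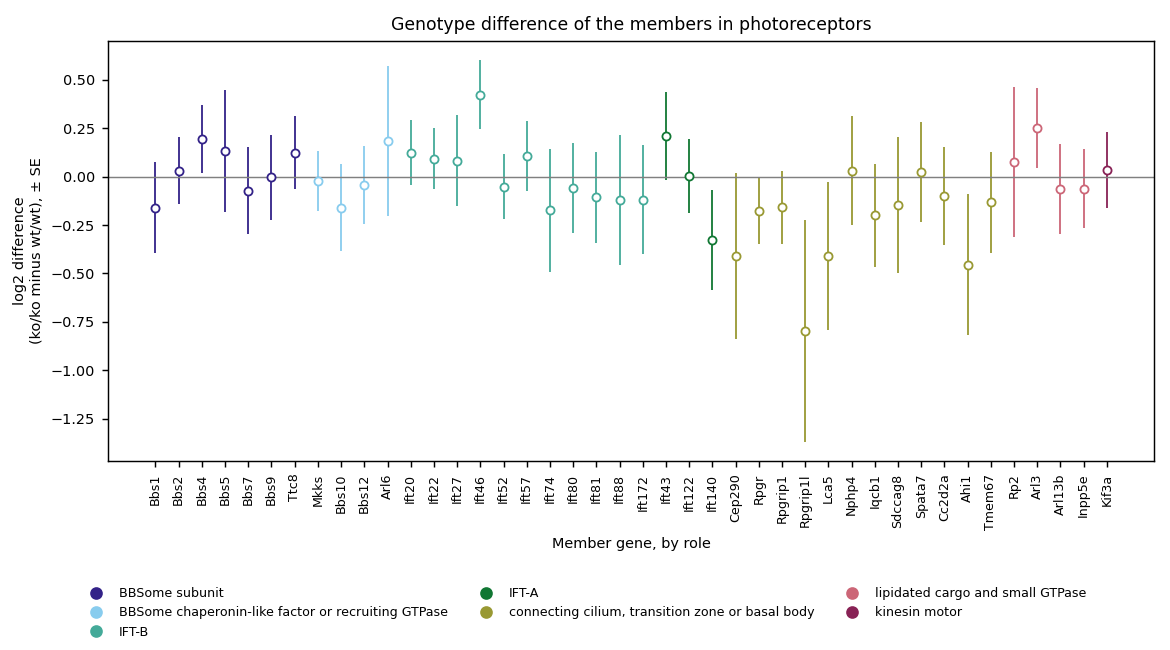
Log2 difference of ko/ko over wt/wt in photoreceptors for the 42 members tested, with its standard error, coloured by role. Open points did not pass an adjusted p under 0.05; values ran from -0.80 (Rpgrip1l) to 0.42 (Ift46).

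The member with the smallest p in photoreceptors was Ift46, an IFT-B subunit. It had 27.5, 28.5 and 34.4 CPM in wt/wt and 39.4, 38.4 and 41.3 in ko/ko, and the genotypes did not overlap (0.42, SE 0.18, edgeR adjusted p = 0.998). A permutation test on 3 against 3 retinas cannot go below 0.1. Ift46 was picked by p from 42 tested members, and the share of all genes without overlap in photoreceptors was not counted. Within batches the log2 ratio was 0.26 in batch 1 and 0.47 in batch 2. Rpgrip1l, a transition zone gene, had 30.1, 34.0 and 14.0 in wt/wt and 6.22, 29.3 and 8.34 in ko/ko (-0.80, SE 0.57, edgeR adjusted p = 0.998). Ift140 had 17.8, 14.9 and 14.5 in wt/wt and 9.68, 11.1 and 15.6 in ko/ko (-0.33, SE 0.26, edgeR adjusted p = 0.998). Both overlapped between genotypes. The log2 ratios of Rpgrip1l were -0.74 in batch 1 and -0.85 in batch 2, and those of Ift140 were 0.10 and -0.65.

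In interneurons the smallest p values belonged to Kif3a (-0.40, SE 0.25), Rpgrip1 (-0.32, SE 0.19) and Cc2d2a, a transition zone gene (-0.75, SE 0.46), each with an edgeR adjusted p of 1.00. All 3 wt/wt values of Kif3a and of Rpgrip1, given above, were higher than the ko/ko values, and Cc2d2a had 54.6, 24.0 and 26.3 in wt/wt and 8.14, 30.2 and 18.3 in ko/ko, which overlapped. These genes were picked by p from 26 tested members, and the share of all genes without overlap in interneurons was not counted. Rpgrip1 in interneurons was at 24.8% of its photoreceptor level, under the 42.2% of the cone markers' sum. What part photoreceptor RNA has in its interneuron values was not tested. Within batches 1 and 2, the log2 ratios were -0.21 and -0.56 for Kif3a, -0.26 and -0.36 for Rpgrip1, and -0.52 and -1.04 for Cc2d2a. In glia the smallest p values belonged to Arl6 (0.68, SE 0.34), Ttc8 (-0.37, SE 0.36) and Ahi1 (-0.36, SE 0.35), with an edgeR adjusted p of 1.00 each, and all 3 overlapped between genotypes. Ttc8, a BBSome subunit, had 57.3, 40.2 and 72.8 in wt/wt glia and 46.9, 41.3 and 50.7 in ko/ko. Ahi1, which encodes jouberin, had 339.9, 308 and 177 in wt/wt glia and 147, 289 and 223 in ko/ko. Within batches 1 and 2, the log2 ratios in glia were 0.80 and 0.63 for Arl6, -0.52 and -0.14 for Ttc8, and 0.34 and -0.57 for Ahi1.

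Whether the genotype difference itself differed between types was tested as an interaction. None of 42 members was called in photoreceptors against interneurons (0% of 14654 genes, with 2 members under an unadjusted p of 0.05) or against glia (0% of 14175 genes, 0 members). The smallest p belonged to Bbs9 against interneurons (1.40, SE 0.42, edgeR adjusted p = 1.00). Its mean photoreceptor level (± SD, n = 3 per genotype) was 98.0 ± 22.7 CPM for wt/wt against 95.6 ± 12.4 for ko/ko, and its interneuron level was 19.7 ± 1.49 against 9.87 ± 5.55. The interneuron values rest on 9, 8 and 26 UMIs in wt/wt and 4, 3 and 9 in ko/ko, at a level within the range of the rod markers. Against glia it was Ttc8 (0.59, SE 0.37, edgeR adjusted p = 1.00).

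The members were also compared between the batches. In photoreceptors, 2 members were higher in batch 1 than in batch 2 and 0 lower (edgeR with genotype as a term), against 2.26% of 13053 genes higher and 3.13% lower. Arl6 had 555 and 586 CPM in batch 1 and 257 to 334 in batch 2 (1.03, SE 0.13, edgeR adjusted p = 0.0102). Bbs5, a BBSome subunit that binds phosphoinositides, had 192 and 215 in batch 1 and 112 to 121 in batch 2 (0.81, SE 0.13, edgeR adjusted p = 0.0209). Rp2 had 15.1 and 14.8 in batch 1 and 7.59 to 8.64 in batch 2 (0.93, SE 0.22, edgeR adjusted p = 0.0518). Batch 1 holds 1 retina of each genotype, and mitochondrial genes took 3.24% and 2.71% of its photoreceptor UMIs against 0.361% to 0.698% in batch 2; the part of this in the difference was not tested.

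The batch calls depend on single retinas. Without ko/ko replicate 1, a batch 2 retina, 7 members were higher in batch 1 (Arl6, Rp2, Bbs5, Ift43, Ift27, Arl3 and Ttc8) and 10 lower (Rpgrip1l, Cep290, Lca5, Ahi1, Ift74, Ift88, Ift172, Spata7, Cc2d2a and Arl13b), against 14.9% of 13486 genes higher and 18% lower in that fit. Both counts lie near the shares of all genes, so they do not set the members apart from other genes. Without any 1 of the wt/wt retinas, or without ko/ko replicate 3, no member was higher, and without ko/ko replicate 2 there was 1. The levels show where ko/ko replicate 1 stood. Cep290 had 704 and 711 in wt/wt replicates 1 and 2 and 648 in ko/ko replicate 2, but 255 in ko/ko replicate 1, next to 288 and 351 in the batch 1 retinas wt/wt 3 and ko/ko 3. Ahi1 had 463, 518 and 381 in those first 3 retinas, 226 in ko/ko replicate 1 and 203 and 239 in batch 1. Lca5 had 193, 187 and 159, then 88.1, and 76.0 and 89.2, and Ift88, a core IFT-B subunit, had 45.0, 43.1 and 47.6, then 23.9, and 22.9 and 28.2. Cep290, Ahi1, Lca5 and Ift88 were picked for this after their values were seen.

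In interneurons the 3 lowest values of Cep290, Ahi1 and Lca5 were in the same 3 retinas, and those of Ift88 were not. In interneurons Cep290 had 211, 238 and 257 in wt/wt replicates 1 and 2 and ko/ko replicate 2, and 122, 102 and 107 in ko/ko replicate 1, wt/wt replicate 3 and ko/ko replicate 3. Ahi1 had 396, 416 and 427 in the first 3 and 228, 210.4 and 235 in the others, and in glia 339.9, 308 and 289 against 147, 177 and 223. Interneurons had 30.8, 43.3 and 51.8 CPM of Lca5 in the first 3 and 24.4, 24.2 and 16.0 in the others. For Ift88, on 68 UMIs, they had 11.9, 24.0 and 10.8, and 8.14, 15.6 and 18.3, which overlapped. Rod markers in interneurons were at 7.94% to 17.6% of their photoreceptor level. What part photoreceptor RNA has in these interneuron and glia levels was not tested. The share of all genes with their 3 lowest interneuron values in those retinas was not counted. Of 42 members with at least 100 UMIs in photoreceptors, 24 had their lowest and 7 their highest batch 2 value in ko/ko replicate 1, against 39.1% and 38.5% of 11507 genes. That retina stood apart from the rest of batch 2 over all genes, with a chi-square per degree of freedom of 11.8 to 17.3 against 1.67 to 3.86 among the other 3. The rod markers of photoreceptors summed to 79300 in that retina, 85782 and 91573 in batch 1 and 59168 to 69167 in the other 3, and its mitochondrial share (0.698%) was the highest of batch 2; what part these have in the levels was not tested.

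**Figure D5:**
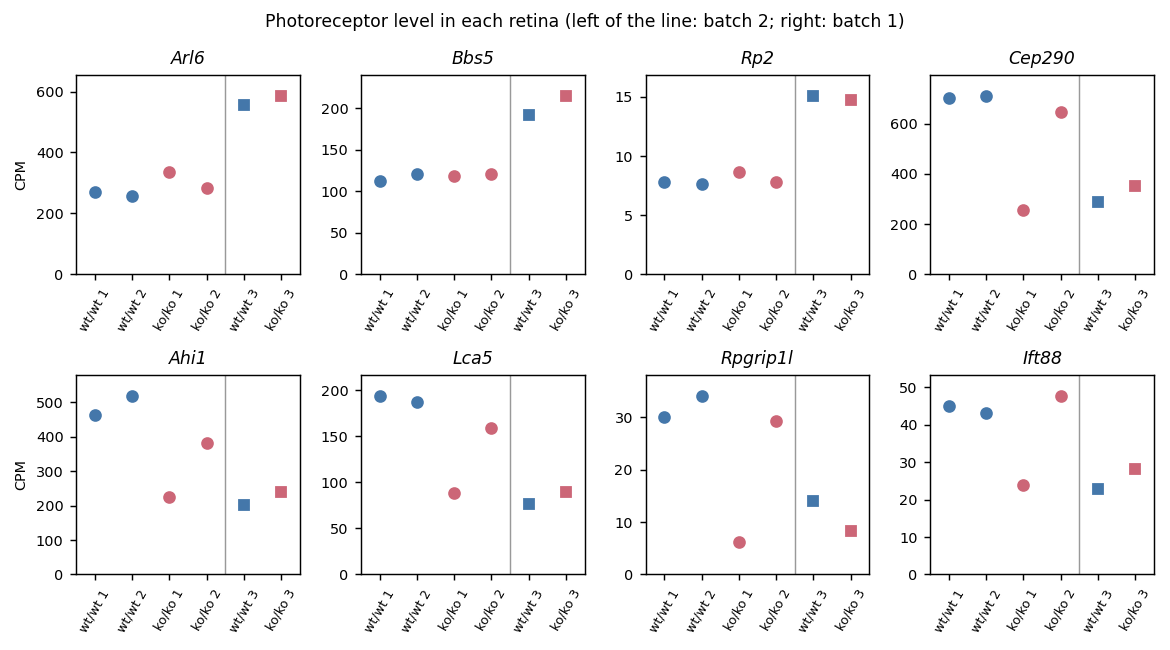
Photoreceptor level (CPM) in each retina for 8 members, wt/wt in blue and ko/ko in red, with the 4 batch 2 retinas left of the line and the 2 batch 1 retinas right of it. Arl6, Bbs5 and Rp2 are highest in both batch 1 retinas, and Cep290, Ahi1, Lca5, Rpgrip1l and Ift88 are low in ko/ko 1 and in both batch 1 retinas.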

How the data were processed

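Single-cell RNA of 6 retinas was counted with the Chromium 3′ v2 kit. The authors aligned the reads with Cell Ranger 3.1.0 (per the submitters' processing notes) to mm10, used exonic reads, and deposited raw UMI counts for 52636 genes and 46375 cells, with a cell table whose types came from their own clusters of the same counts after integration over the batch. Types for 45746 cells were used, and 629 cells without a type entered only the sums over all cells. Gene names are from GENCODE M21 (52489 named, 147 not). Cell names carry no barcode, so barcodes shared between libraries could not be counted. Doublets were not called. The text deposited with the labels speaks of 1 sample per genotype and of choroid, while the labels give 3 retinas per genotype.

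The counts were summed per retina and type. Genotypes were compared with edgeR 4.0.16 (R 4.3.3; glmQLFit, glmQLFTest, TMM, filterByExpr), with genotype as the only term. Types were compared in 1 fit of 30 sums with the retina as a block, on genes with at least 100 UMIs. The types were made from these counts, so their p-values are not independent evidence of them. Batch was tested beside genotype. P-values were adjusted by Benjamini-Hochberg over all genes tested, at 0.05. SE is the log2 difference over the square root of F. Levels are CPM, UMIs per 1000000 of the sum without TMM, while log2 differences include it. A count of 0 was read against 3 counts, and such limits cover counting error only. No 2 libraries were copies of the same counts (lowest chi-square per degree of freedom 1.67 over 15 pairs, for wt/wt replicates 1 and 2). This value cannot tell whether 2 libraries came from 1 mouse. Tests were tried on simulated counts. The alternatives were limma-voom (3.58.1), DESeq2 (1.42.0), RLE factors, UMI totals, other filters, a fold change above 2, stricter cells (a mitochondrial share of 10% or less and 500 UMIs or more), leaving out the 5% of cells with most UMIs, subsets of retinas, batch or replicate number as a term, and each retina left out.

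Members and lists were chosen with earlier results of these data known. Members given in full were, per role, the one with most UMIs, the 3 largest and 3 lowest log2 differences from interneurons, and the 3 smallest p per genotype comparison (photoreceptors, interneurons and glia) and batch (1 for each interaction). Of other lists, at most 2 genes were named, those with most UMIs.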

Additional observations from a re-analysis of the deposited data

Results flagged for a closer look

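Levels in the 6 retinas of a type were searched for a retina far from the others, with the gap to its nearest neighbour over the whole range set against 0.625, for members with at least 100 UMIs in that type. Of 73 sets of 6 values, 3 were past it, no more than the 1 in 20 or so that would be by chance, and all 3 were in interneurons. Ift52 was low in ko/ko replicate 1, at 8.14 CPM against 27.4 to 35.6 in the others. That value lies under the limit of 3 counts in that sum, 12.2 CPM. Ift74 was high in wt/wt replicate 2, at 45.7 against 20.3 to 28.5. Arl3 was high in ko/ko replicate 1, at 334 against 252 to 278.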

How the results depend on the processing

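Of the 33 members higher in photoreceptors than in interneurons, 26 were called in each of 19 alternatives that tested them, leaving aside the rule of a fold above 2, and 7 were lost in at least 1 (Ahi1, Ift52, Ift80, Mkks, Nphp4, Rpgrip1l and Spata7). Of the 28 over glia, 18 were called in each and 10 were lost in at least 1 (Ahi1, Bbs1, Cc2d2a, Ift122, Ift172, Ift22, Ift81, Nphp4, Rpgrip1l and Tmem67). Of 34 over mesenchymal cells 19 were called in each of 18 and 15 were lost, and of 34 over RPE cells 14 and 20. With filterByExpr by type the numbers higher were 19 over interneurons, 17 over glia, 19 over mesenchymal cells and 18 over RPE cells, where fewer members are tested, and 12 over glia with at least 50 UMIs there. Over mesenchymal cells they were 22 with UMI totals and 21 in ko/ko retinas, and over RPE cells 22 with DESeq2, 16 with UMI totals, 18 in wt/wt retinas and 19 in ko/ko retinas. The share of all genes called is not given beside the counts of this paragraph, so they do not set members apart from other genes. Lower than in interneurons was 1 member with limma-voom, DESeq2, RLE factors, no filter, filterByExpr, ko/ko retinas, no retina block, the stricter cells or without the cells with most UMIs, and 0 at a fold above 2. Lower than in glia were 3 with UMI totals, 2 in batch 2 and 0 with no filter, filterByExpr, a fold above 2, no retina block or at least 50 UMIs in glia. Lower than in mesenchymal cells were 0 with no filter, filterByExpr or ko/ko retinas. Leaving out 1 retina gave 31 to 34 members higher and 1 to 3 lower for interneurons, 26 to 28 and 0 to 2 for glia, 28 to 34 and 0 to 1 for mesenchymal cells, 26 to 30 and 0 for RPE cells, and 0 to 7 and 0 to 10 for batch. For batch, 5 were lower with no filter. Among all members tested, 10 changed sign against glia in at least 1 alternative, 5 against interneurons, 4 against mesenchymal cells and 5 against RPE cells, none of them called in the main comparison or with the changed sign; with UMI totals they were 2 (Inpp5e and Sdccag8), 3 (Ift27, Ift46 and Inpp5e), 3 and 1. Of the members given in full, those against glia were Ift20 in ko/ko retinas (-0.0136), Ift43 with no filter (0.00774) and Kif3a with no filter (0.13), at least 50 UMIs in glia (0.12) and without 1 retina (-0.334 to 0.0252, above 0 without wt/wt replicate 2 or ko/ko replicate 2). The causes were not tested.

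No alternative called a member between genotypes or in an interaction. Genes called were 1 with no filter in photoreceptors, interneurons and all cells. In mesenchymal cells they were 28 with no filter, 21 with batch as a covariate, 19 in batch 2 retinas and 0 to 7 without 1 retina, and in RPE cells 1 with DESeq2, 3 with no filter or batch, 4 in batch 2 retinas and 0 to 2 without 1 retina. With the replicate block, genes called were 26 in mesenchymal cells, 4 in RPE cells and 0 in the other types. Whether the numbers pair the retinas could not be told, since replicate 3 is also the batch 1 retina of each genotype. Deviations from the genotype mean in photoreceptors correlated at -0.07, 0.58 and 0.55 for replicates 1, 2 and 3. Replicates 2 and 3 of ko/ko correlated best with their own number, and ko/ko replicate 1 did not. For ko/ko replicate 2 the value with wt/wt replicate 1, also of batch 2, was close, at 0.56. Restriction to batch 2, and the filters of at least 50 UMIs, were chosen after seeing the data. Depth limits glia, mesenchymal and RPE sums most.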
